A study of Mus musculus with 8 samples.

Results

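The genes described here encode the proteins of the cytosolic ribosome, found by symbol as Rpl or Rps followed by a number (with an a or x where the name has one), together with Rplp0, Rplp1, Rplp2 and Rpsa. With 1 probe set per gene, the one with the highest mean over the 8 arrays, 53 such genes were found among 19938 genes with a probe set of a single symbol, 33 of the large (60S) and 20 of the small (40S) subunit. RefSeq (GRCm38.p6) lists 76 protein-coding genes under the same naming rule, and the other 23, among them Rpl11 and Rps27a, were not analysed here because the platform annotation gives them no probe set with a single symbol. The membership rule used names alone, but it was chosen with earlier results of these data known. Measured levels entered the choice of the probe set of each gene.

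Hepatic stellate cells, liver pericytes that store vitamin A, were taken from male Balb/c mice and profiled on Affymetrix whole-transcript arrays. The 4 reverted arrays hold cells of mice given 4 injections of carbon tetrachloride (CCl4), a liver toxin that induces fibrosis, 2 in each week and 0.5 µl per gram of weight each, then rested for 45 days, and the 4 quiescent arrays hold cells of normal mice. All cells were enriched on a density gradient, sorted on retinoid autofluorescence and lysed at once, so the cells kept were those that held retinoids. The labels give an age of 18 weeks for both groups in one statement and of 16 weeks for the injected mice in another, and do not say whether an array holds 1 mouse or a pool, so the p-values rest on a spread between arrays that may be technical.

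Each ribosomal protein is present in a single or very few copies per ribosome, and cells keep the proteins of both subunits in balance, partly by degrading those left unassembled. Vertebrate ribosomal protein mRNAs begin with a terminal oligopyrimidine (TOP) tract, through which the kinase mTOR and the binding protein Larp1 control their translation as a group. Growth signals through Myc raise the transcription of ribosome assembly genes and of rRNA, and stellate cells that become activated are known to enlarge their protein synthesis and secretory machinery.

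The start regions of a few members show this shared element, and they are given for members with the widest differences and with almost none or a negative one. The sequences are RefSeq's (GRCm38.p6), from 40 bases before the annotated start to 15 bases from it on, 5′ to 3′ on the strand of the gene. Capitals mark a C followed by at least 5 pyrimidines that begins within 10 bases of the annotated start. Rpl12 lies on the plus strand at chr2:32961672-32961726, Rps15a on the minus strand at chr7:118116133-118116187, Rps6 on the minus strand at chr4:86857353-86857407, Rps3 on the minus strand at chr7:99483695-99483749 and Rpl37a on the plus strand at chr1:72711220-72711274.
Rpl12: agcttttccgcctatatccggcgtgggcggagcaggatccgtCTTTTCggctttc
Rps15a: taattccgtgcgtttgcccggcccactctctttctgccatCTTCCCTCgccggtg
Rps6: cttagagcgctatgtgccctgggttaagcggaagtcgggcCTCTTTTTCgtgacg
Rps3: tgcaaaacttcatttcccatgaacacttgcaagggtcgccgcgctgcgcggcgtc
Rpl37a: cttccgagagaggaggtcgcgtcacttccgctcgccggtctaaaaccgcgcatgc
The first 3 carry the marked run, and Rps3 and Rpl37a have none in this window. The start regions of Rpl13, Rpsa, Rplp0 and Rpl10 were looked at but are not printed. They had none within 10 bases of the annotated start either. Those of Rpl13 and Rpl10 did hold such a run further upstream. Rpl12 and Rps15a were among the members with the widest positive differences below, while Rps6 was at a difference of -0.0021. Whether the run goes with the size of the difference was not tested.

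Promoter sequences of 300 bases (250 before the start) were at hand for 42 of the 53 members, 6 of them with several starts, which gave 49 member promoters. The pyrimidine run was found near the start in 21 of the 49 (42.9%), against 18.5% of all 32851 promoters. The ETS factor core CCGGAAG, searched on both strands, was in 34.7% of member promoters and 8.86% of all promoters. The GC box core GGGCGG (both strands) was in 59.2% and 35.7%, the YY1 core AAGATGGC (both strands) in 4.08% and 2.75%, and the TATA box core TATAAA (both strands) in 10.2% and 13.6%. These are letter matches in a window placed by the annotation, and annotated starts can lie away from the true start.

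Ribosomal protein mRNAs were nearly level between reverted and quiescent stellate cells, with means mostly slightly higher in reverted cells. In limma with Benjamini-Hochberg adjustment over all 19938 genes, 0 of the 53 members rose and 0 fell at an adjusted p under 0.05 (a call), where 0.712% of all genes passed (0.527% rose and 0.186% fell). The mean was higher in reverted cells for 47 of the 53 members and lower for 6, whereas 46.4% of all genes were higher. The median log2 change (reverted minus quiescent) of the members was 0.074, a fold of 1.05, and that of all genes was -0.0080. Member changes ran from -0.054 (Rpl37a) to 0.29 (Rpl12). Of the members, 10 were higher at an unadjusted p under 0.05 (18.9%, against 8.56% of all genes) and 0 were lower at that level (7.4% of all genes). The count of 10 ranged from 4 to 14 with 1 array left out. Since cells were measured in bulk, fewer cells of a type and less RNA per cell cannot be told apart.

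The intervals of the members were narrow. For 52 of the 53, the 95% interval of the difference lay inside 1.5-fold in both directions, as it did for 97% of all genes. Rpl12 was the exception, with an interval of the fold from 0.986 to 1.53. The residual SD of the members had a median of 0.063 on the log2 scale, against 0.081 over all genes. Most members lie near the top of the scale: 42 of 53 were at level percentile 90 or above among all genes. The 1994 genes there, a comparison chosen after the values were seen, had a median residual SD of 0.063 as well and a median log2 change of 0.0068, with 54.4% higher in reverted cells. Of these genes 0.752% passed the adjusted test (0.451% rose and 0.301% fell), 8.88% were higher and 6.32% lower at an unadjusted p under 0.05, and 97.9% had an interval inside 1.5-fold.

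**Figure D1:**
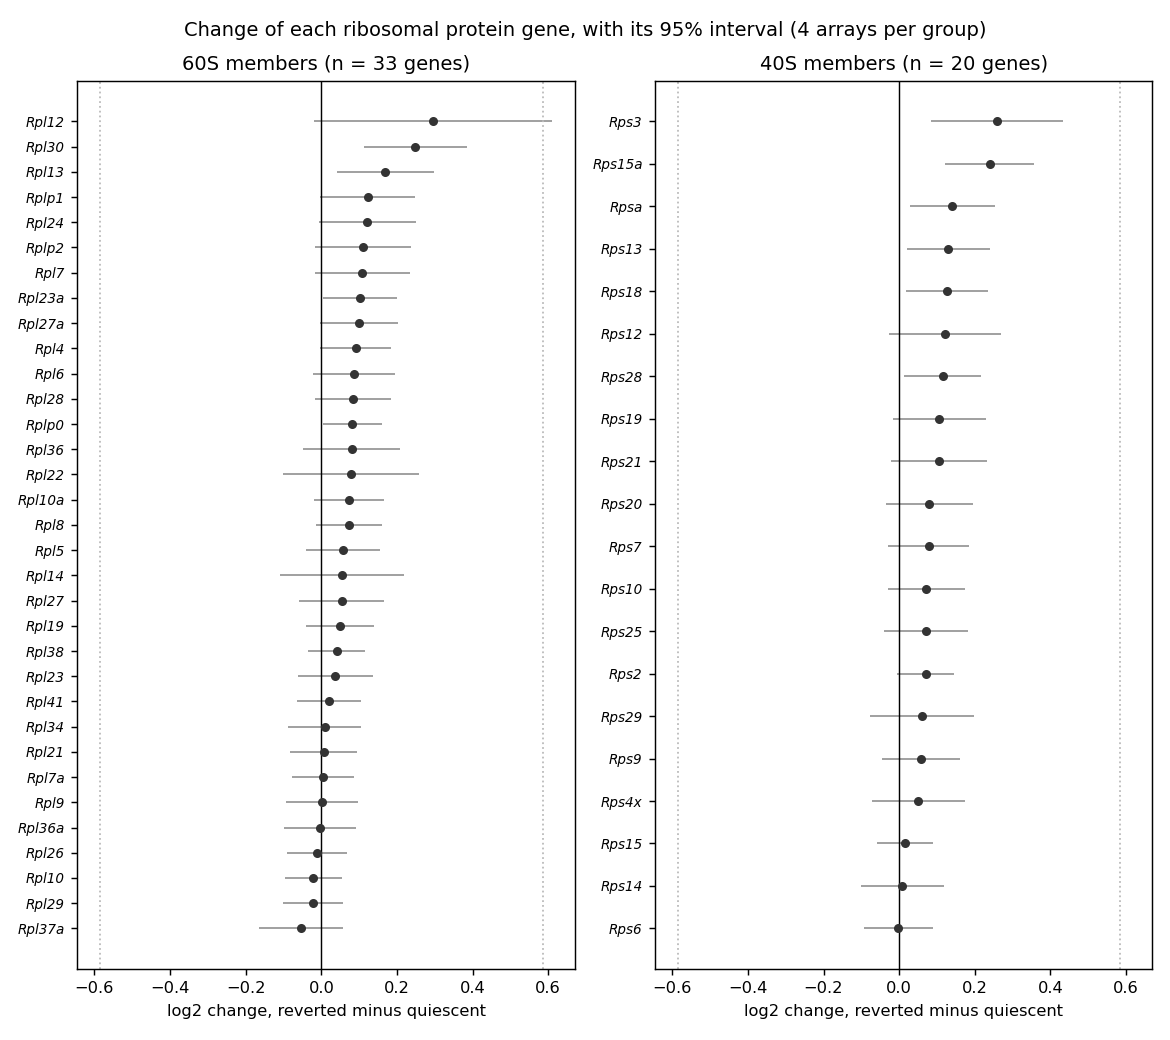
Points show the log2 change (reverted minus quiescent, 4 arrays per group) of each of the 33 genes of the 60S and 20 genes of the 40S subunit, and bars the 95% interval from limma, with dotted lines at 1.5-fold. Points lie right of 0 for 47 of the 53 genes, and the bar of Rpl12 alone crosses a dotted line.

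Among the small subunit genes, 19 of 20 had a higher reverted mean and the median log2 change was 0.079, against 28 of 33 and a median of 0.074 for the large subunit. The difference between the subunits was not tested. Unadjusted p under 0.05 was reached by 6 of the 40S and 4 of the 60S members. For all 10 genes of the 40S head analysed here the reverted mean was higher, from 0.016 for Rps15 to 0.26 for Rps3. The 4 genes of the stalk and its base, which recruits translation factors, had differences between 0.082 and 0.29, and the 5 genes of the polypeptide exit tunnel and its rim analysed here between -0.011 and 0.10.

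Rps15a, a protein of the 40S body, came closest to the threshold. Its log2 levels were 9.84, 9.82, 9.99 and 9.93 on reverted arrays 1 to 4 and 9.73, 9.66, 9.56 and 9.67 on quiescent arrays 1 to 4. The groups did not overlap, with the lowest reverted array at 9.82 above the highest quiescent array at 9.73. The fold was 1.18 (log2 0.24, SE 0.053, adjusted p = 0.0900 in limma), and the adjusted p lay between 0.0880 and 0.248 when each array was left out in turn. Rpl30, which lies at the interface of the subunits, had levels of 8.68, 8.78, 8.77 and 8.76 in reverted cells and 8.35, 8.63, 8.46 and 8.55 in quiescent cells, again without overlap. Its fold was 1.19 (interval 1.08 to 1.31, adjusted p = 0.117).

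Rps3, which lines the mRNA entry channel and also has roles in DNA repair, was at 12.12, 11.95, 12.08 and 11.89 on the reverted arrays. On the quiescent arrays it was at 11.76, 11.55, 11.86 and 11.84, with quiescent array 2 clearly lowest. All reverted values lay above all quiescent values, although reverted array 4 exceeded quiescent array 3 by little. The log2 change was 0.26 (SE 0.078, adjusted p = 0.173). The other 2 members of the entry channel, Rps2 and Rps9, had log2 changes of 0.070 and 0.057.

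Rpl12, at the base of the stalk, had the widest mean difference and the widest spread of all members. Its levels were 9.14, 9.17, 9.41 and 9.20 in reverted cells, against 8.62, 9.09, 8.73 and 9.31 in quiescent cells. Quiescent array 4 lay above reverted arrays 1, 2 and 4, so the groups overlapped. The log2 change of 0.29 (SE 0.14) had an adjusted p of 0.338, and it ranged from 0.19 without quiescent array 1 (adjusted p = 0.606) to 0.42 without quiescent array 4 (adjusted p = 0.101).

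The stalk proteins Rplp0, Rplp1 and Rplp2 bring elongation factors to the ribosome, and Rplp0 (also 36B4) is in common use as a reference gene in quantitative PCR. Rplp0 stood at 12.95, 12.86, 12.89 and 12.91 in reverted cells and at 12.82, 12.80, 12.83 and 12.83 in quiescent cells. The reverted arrays were all higher, yet the fold was 1.06 (interval 1.00 to 1.12, adjusted p = 0.297). Rplp1 was at 13.62, 13.39, 13.56 and 13.44 in reverted cells, against 13.38, 13.32, 13.43 and 13.38 in quiescent cells, with overlap and a log2 change of 0.12 (adjusted p = 0.321). Rplp2 was at 8.18, 8.10, 8.17 and 8.16 in reverted cells and at 8.08, 8.01, 8.17 and 7.91 in quiescent cells, where quiescent array 3 reached the reverted values (log2 change 0.11, adjusted p = 0.364). Without quiescent array 4 the change of Rplp2 was 0.066.

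**Figure D2:**
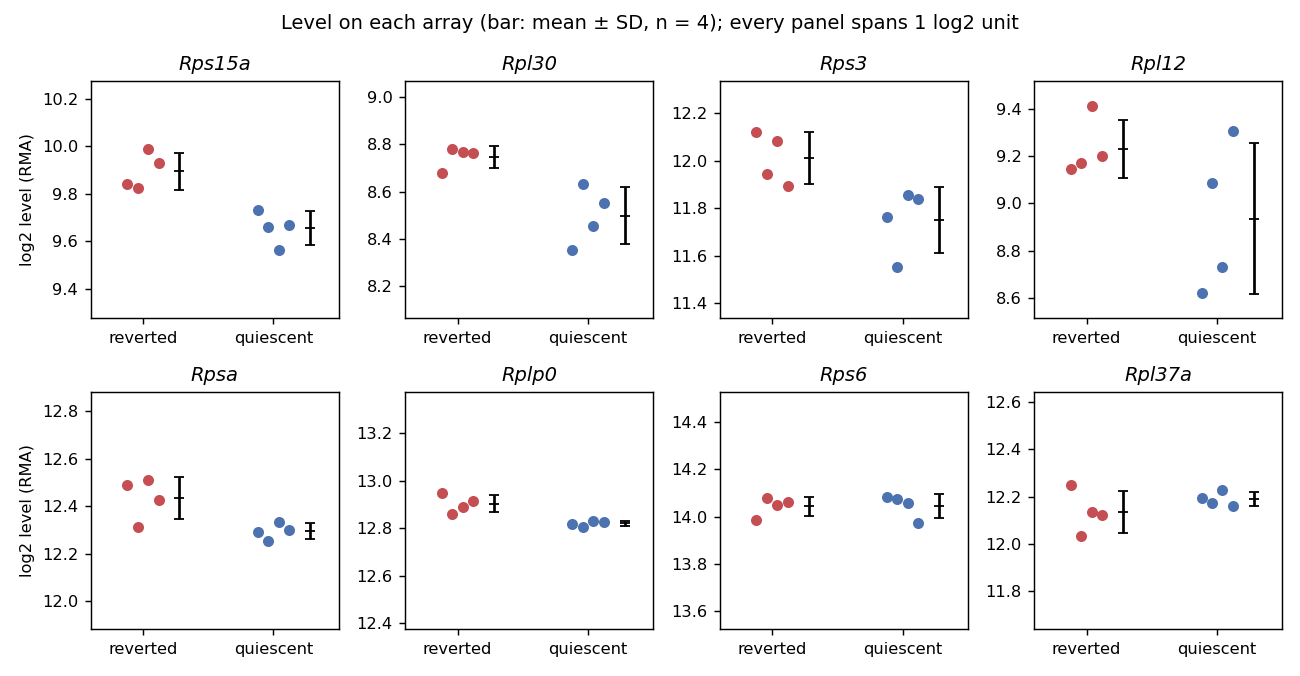
RMA log2 levels of 8 members on each array, reverted left and quiescent right, with mean ± SD (n = 4) beside the points and an axis of 1 log2 unit in every panel. The groups stand apart for Rps15a, Rpl30, Rps3 and Rplp0 and overlap for Rpl12, Rpsa, Rps6 and Rpl37a.

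Rpsa, the 40S protein also known as the laminin receptor, was at 12.49, 12.31, 12.51 and 12.43 in reverted cells, against 12.29, 12.25, 12.33 and 12.30 in quiescent cells. Reverted array 2 was below quiescent array 3, and the log2 change was 0.14 (adjusted p = 0.232). Rpl13, of the 60S subunit, had a log2 change of 0.17 (adjusted p = 0.211), with 11.88, 11.67, 11.76 and 11.72 in reverted cells and 11.50, 11.55, 11.67 and 11.64 in quiescent cells. The lowest reverted array of Rpl13 lay just above the highest quiescent array. Rps13 and Rps18 both lie near the contacts between the subunits. Rps13 had 11.16, 11.09, 11.18 and 11.16 in reverted cells and 11.02, 10.91, 11.07 and 11.09 in quiescent cells, with reverted array 2 just below quiescent array 4 and a log2 change of 0.13 (adjusted p = 0.250). Rps18 had 13.05, 12.88, 12.95 and 12.93 in reverted cells and 12.81, 12.75, 12.89 and 12.85 in quiescent cells, with reverted array 2 below quiescent array 3 and the same change of 0.13 (adjusted p = 0.257).

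Groups did not overlap for 9 members, all with the reverted arrays on the higher side, which is 17% of the members against 4.64% of all genes and 6.07% of those at level percentile 90 or above. In the lower direction it was 0 members, 4.09% of all genes and 5.07% of those highest genes. Besides Rps15a, Rpl30, Rps3, Rplp0 and Rpl13, these were Rpl23a, where the signal recognition particle and nascent chain factors dock (log2 change 0.10), Rpl38 (0.041), Rpl8, which lies close to the peptidyl transferase centre (0.074), and Rps2 (0.070). For Rpl38 the non-overlap thus stood beside a fold close to 1 and an unadjusted p of 0.258.

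Rps6, the substrate of the S6 kinases downstream of mTOR, had levels of 13.99, 14.08, 14.05 and 14.06 in reverted cells and of 14.08, 14.07, 14.06 and 13.97 in quiescent cells. The groups covered the same range, and the log2 difference was -0.0021 with an interval from -0.094 to 0.090. Its sign turned after quantile normalization (0.025) and without any of reverted array 1 or quiescent arrays 1, 2 and 3. The 6 members with a lower mean in reverted cells were Rps6, Rpl36a (-0.0043, turning with array weights), Rpl26 (-0.011), Rpl10 (-0.021), Rpl29 (-0.023) and Rpl37a (-0.054), all with adjusted p of 0.599 or above. Rpl10, an X-linked protein that is added late in 60S maturation, was at 13.86, 13.80, 13.83 and 13.85 in reverted cells and at 13.86, 13.85, 13.85 and 13.85 in quiescent cells. Reverted array 2 was the lowest value of Rpl10, and also of Rpl37a, which had 12.25, 12.03, 12.14 and 12.12 in reverted cells against 12.20, 12.17, 12.23 and 12.16 in quiescent cells. Rpl29 was at 12.17, 12.12, 12.15 and 12.09 in reverted cells and 12.14, 12.18, 12.17 and 12.14 in quiescent cells, and reverted array 4 was lowest. Rpl26, at the rim of the exit tunnel, was at 10.12, 10.05, 10.08 and 10.04 in reverted cells and 10.09, 10.08, 10.09 and 10.07 in quiescent cells, and the groups overlapped. Rpl36a was at 12.47, 12.34, 12.45 and 12.40 in reverted cells and 12.37, 12.40, 12.44 and 12.46 in quiescent cells, with the groups interleaved. The signs of Rpl26 and Rpl36a also turned when single arrays were left out, with ranges from -0.026 to 0.00052 and from -0.023 to 0.021.

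Rpl5, which forms the 5S particle with Rpl11 and binds Mdm2 when assembly is disturbed, had levels of 12.60, 12.61, 12.62 and 12.57 in reverted cells and of 12.60, 12.44, 12.57 and 12.56 in quiescent cells (log2 change 0.058, adjusted p = 0.524). The groups overlapped, with quiescent array 2 lowest, and without that array the change of Rpl5 was 0.023. Rps19, mutated in Diamond-Blackfan anaemia in people, was at 12.42, 12.32, 12.38 and 12.36 in reverted cells and 12.22, 12.14, 12.34 and 12.36 in quiescent cells (log2 change 0.11, adjusted p = 0.369). Quiescent arrays 1 and 2 were low, and quiescent arrays 3 and 4 lay above reverted array 2, and the change of Rps19 was 0.064 without quiescent array 2. Rpl22, which also binds RNA outside the ribosome, was at 10.04, 9.70, 9.80 and 9.81 in reverted cells and 9.74, 9.60, 9.85 and 9.83 in quiescent cells (log2 change 0.078, adjusted p = 0.641). Reverted array 1 was its highest and quiescent array 2 its lowest, and the others overlapped. The change of Rpl22 was 0.011 without reverted array 1, 0.026 without quiescent array 2 and 0.12 without reverted array 2. Rpl41, which encodes the smallest protein of the ribosome, was at 13.40, 13.36, 13.36 and 13.40 in reverted cells and 13.41, 13.31, 13.38 and 13.34 in quiescent cells, with full overlap (log2 change 0.020, from 0.0027 to 0.037 with 1 array left out, adjusted p = 0.811). The X-linked Rps4x was at 12.66, 12.57, 12.62 and 12.52 in reverted cells and 12.53, 12.41, 12.63 and 12.59 in quiescent cells, with quiescent array 2 lowest and overlap elsewhere (log2 change 0.051, adjusted p = 0.657). Its change was 0.0081 without quiescent array 2, 0.029 without reverted array 1 and 0.079 without quiescent array 3. The 3 X-linked members, Rps4x, Rpl36a and Rpl10, had log2 changes of 0.051, -0.0043 and -0.021.

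The members also differed between arrays of the same group. After subtraction of each gene's mean over the 8 arrays, the median of the 53 members was 0.074, -0.0075, 0.060 and 0.011 on reverted arrays 1 to 4, and -0.043, -0.097, 0.012 and -0.019 on quiescent arrays 1 to 4. Reverted arrays 1 and 3 were the highest and quiescent array 2 the lowest, while reverted arrays 2 and 4 overlapped with quiescent array 3. The mean of these array medians was 0.035 ± 0.039 in reverted and -0.037 ± 0.046 in quiescent cells (SD, n = 4). Over all genes, the same medians stayed between -0.013 and 0.010.

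Many but not all members followed this profile. Reverted array 1 held the highest value for 28 of the 53 members and reverted array 3 for 12, and quiescent array 2 held the lowest value for 29. Over all 19938 genes these counts were 2628, 1699 and 2985, and over the 1994 genes at level percentile 90 or above 263, 231 and 310. In the 40S subunit, quiescent array 2 was the lowest array for 13 of 20 genes. Reverted array 3 was above the gene's mean for 20 of 20, and for 9262 of all genes. The SD of a member over the 8 arrays had a median of 0.072, and of 0.047 once the array median of the members had been subtracted. Subtraction lowered the SD for 38 members and raised it for 15, among them Rpl10 (SD 0.062 after and 0.021 before), Rps6 (0.082 and 0.042) and Rps15 (0.048 and 0.016). The array median came from these same members and also carries the group difference, so a lower SD for most of them is partly built in. The subtraction was not made for other genes. The median log2 change of the members was 0.048 without quiescent array 2 and 0.062 without reverted array 1, with 45 of 53 members higher in each case. Quiescent array 2 thus moved the median by over 1.5 times, and 4 members were then higher at an unadjusted p under 0.05. That count was 5 without reverted array 1, 4 without reverted array 3 and 6 without quiescent array 1, against 10 with all arrays. With all arrays, 8.56% of all genes were higher at that level, and 4 of 53 members is not above that share. The share of all genes higher is not given with an array left out. In either direction, 3181 of all 19938 genes were under that level with all arrays. The number was 2310 without quiescent array 2, 2271 without reverted array 3 and 2274 without quiescent array 1. Without reverted array 1 it was higher, at 3564.

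**Figure D3:**
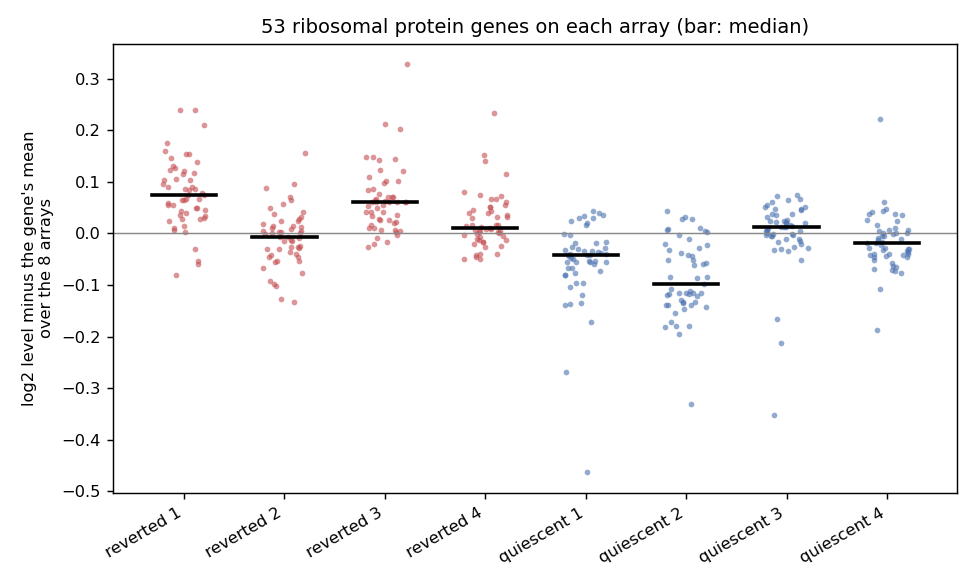
Each point is a member's log2 level on an array minus its mean over the 8 arrays, and the bar is the median of the 53 members. Medians are highest on reverted arrays 1 (0.074) and 3 (0.060) and lowest on quiescent array 2 (-0.097), and those of reverted arrays 2 and 4 lie within the quiescent range or at its edge.

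Other features of the arrays stood beside this profile. On the first principal component over all genes (35.3% of the variance), reverted arrays had scores from 6.07 to 11.5, quiescent array 4 stood at -0.21 and the other quiescent arrays ran from -14.0 to -8.79. Without quiescent array 4 the members' median log2 change was 0.083, and 0 members were called, with 13 higher at an unadjusted p under 0.05. Over all 19938 genes, 175 then rose and 72 fell. Those at an unadjusted p under 0.05 in either direction numbered 4533, against 3181 with all arrays, so the wider count was not particular to the members. The proliferation markers had a mean log2 level of 8.60, 7.44, 7.503 and 7.32 on reverted arrays 1 to 4 and of 7.25, 7.09, 7.58 and 7.45 on quiescent arrays 1 to 4, with 9 of 9 higher on average and 0 called. The hepatocyte markers had a mean level from 9.26 to 9.78 in reverted cells, highest on array 1, and from 8.58 to 9.57 in quiescent cells, with 13 of 14 higher, Hp called as a rise and Trf as a fall. Portal fibroblast and mesothelium markers lay from 7.93 to 8.17 in reverted and from 7.65 to 7.72 in quiescent cells, where 3 of 10 rose (Dpt, Gas6, Wt1), the other 7 had lower means in reverted cells and the median log2 change was -0.060. The stellate markers were lower in reverted cells for 13 of 13, at mean levels from 12.98 to 13.03 against 13.07 to 13.13, and Gfap alone fell, by 0.49. Sinusoidal endothelium markers lay from 8.33 to 8.90 in reverted and from 8.10 to 8.62 in quiescent cells, with 9 of 10 higher and 0 called. The markers of macrophages, B cells, T and NK cells, neutrophils, cholangiocytes, erythroid cells and the immediate early response gave 0 calls. The part of other cells and of proliferation in the members' values was not tested. The stellate cell markers Lrat and Reln had mean log2 levels of 14.04 and 14.32 in reverted cells and 14.05 and 14.35 in quiescent cells. Both lay above level percentile 99 among all genes, as did Pdgfrb, Hgf, Rgs5, Lhx2, Vipr1 and Colec11. The other stellate markers lay lower, with Ngfr at 98.4, Des at 98.0, Hand2 at 96.5, Nes at 89.4 and Gfap at 62.3.

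Many ribosomal protein genes have several probe sets, and the mouse genome is known to hold many processed copies of them with near-identical sequence. The annotation gives 208 single-symbol probe sets to the 53 members, 1 each to 15 of them and several to 38, up to 14 for Rps12. It does not tell which locus a probe set was designed on, so a value may mix the gene with its copies, and probe sets of the same gene may share probes and are not independent. Of the 208 probe sets, 187 were higher and 21 lower in reverted cells, 0 were called, and the median log2 change was 0.082. With 1 probe set per gene, 46.4% of all genes were higher and 0.712% were called. Shares over all probe sets are not given here. Probe sets with identical values count several times, so these counts add little to those of the genes. Within a gene, the range of the log2 change over its probe sets had a median of 0.033 and was widest for Rpsa (0.119, from 0.021 to 0.14). All probe sets had the same sign in 36 of the 38 genes, and Rpl21 and Rps9 were the exceptions. Some probe sets of a gene held identical values, as did all those of Rpl41 (range 0) and several of Rps12. Agreement within a gene is therefore partly built in. Those of Rps6 (8 probe sets) and Rpl10 (6) were all lower in reverted cells.

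**Figure D4:**
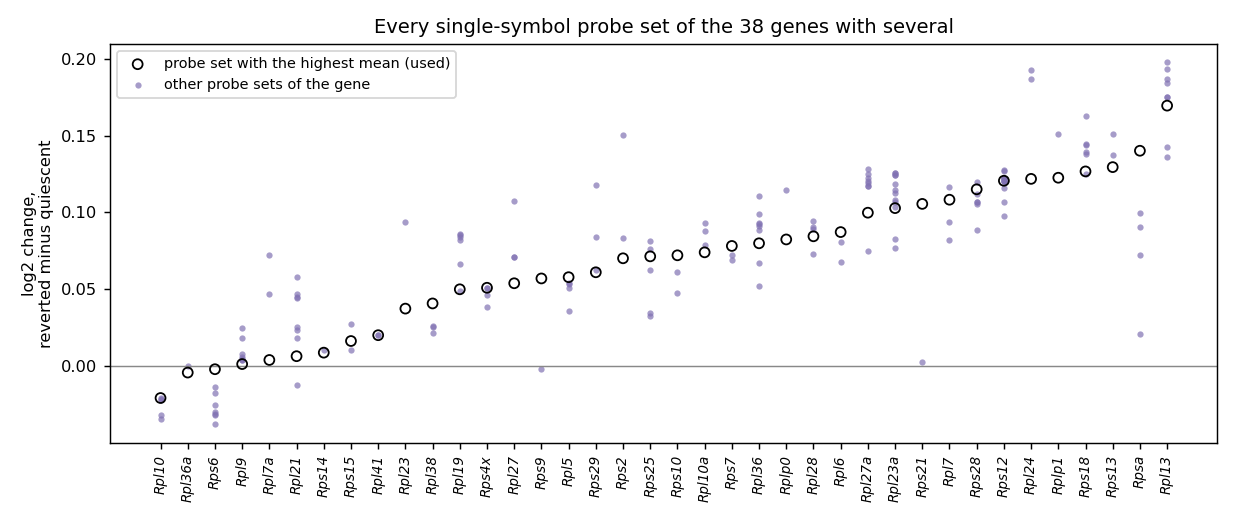
The log2 change (reverted minus quiescent) of every single-symbol probe set is shown for the 38 members with several, with the probe set used marked by an open circle and genes ordered by it. Probe sets of a gene lie close together, with a median range of 0.033, and that of Rpsa is widest at 0.119. Some probe sets of a gene hold identical values, so their points coincide.

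The members with 1 probe set included all 4 with the widest differences, Rpl12, Rps3, Rpl30 and Rps15a. Their 15 log2 changes ran from -0.054 to 0.29 with a median of 0.080, against -0.021 to 0.17 and a median of 0.072 for the 38 members with several probe sets. The 7 members below level percentile 80, among them Rpl12, Rpl30 and Rps15a, had a median of 0.110, and the other 46 a median of 0.073. That split was chosen after the values were seen. A further 233 probe sets carry several symbols including at least 1 ribosomal protein, from which no gene was named. Of these, 214 were higher in reverted cells, 0 were called, and their median log2 change was 0.054. Shares over all probe sets with several symbols are not given here.

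Other genes of the translation machinery were also mostly higher in reverted cells without a call. The list of elongation factors and TOP-type partners had 15 measured genes, not all of which are elongation factors or have TOP mRNAs. Of these 15, 0 rose and 0 fell and 12 were higher (median log2 change 0.085, from -0.21 to 0.49). Of 25 initiation factors 0 rose and 0 fell, with 22 higher and a median of 0.081, or 0.053 after quantile normalization. Eif5a, which helps ribosomes through stalling sequences, was at 12.56, 12.56, 12.66 and 12.70 in reverted cells and at 12.44, 12.32, 12.39 and 12.31 in quiescent cells, without overlap. Its log2 change was 0.25 (adjusted p = 0.0600), and in other settings it was called with array weights (adjusted p = 0.0395) and with robust variances and an intensity trend (0.0302). With the lower of its probe sets the change was 0.092. Pabpc1, the poly(A) binding protein, and Eef1b2, an exchange factor of elongation factor 1, had log2 changes of 0.16 and 0.14 and did not pass. Eef1e1, a part of the aminoacyl-tRNA synthetase complex, differed by 0.49 on the log2 scale (SE 0.13) and did not pass either (adjusted p = 0.139).

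The proteins of the mitochondrial ribosome, a separate machine made from its own set of nuclear genes, had a median log2 change of 0.094, with 62 of 78 higher, 0 rises and 0 falls. That median was 0.058 without quiescent array 1 and 0.061 after quantile normalization. Their smallest p values were those of Mrpl20 (log2 change 0.22, adjusted p = 0.0840) and Mrps25 (0.25, adjusted p = 0.0928). Genes of ribosome assembly and rRNA transcription had the widest median of these lists, 0.188, with 47 of 50 higher, 0 rises and 0 falls. The reverted arrays lay above all quiescent arrays for 18 of the 50, where 4.64% of all genes did so. Tsr1, an assembly factor of the 40S subunit, had levels of 9.18, 9.30, 9.25 and 9.33 in reverted cells, against 8.95, 8.99, 9.01 and 9.10 in quiescent cells (log2 change 0.25, adjusted p = 0.0562). Polr1b, a subunit of RNA polymerase I, and Rrn3, its initiation factor, had log2 changes of 0.22 and 0.21 (adjusted p = 0.0981 and 0.100). Other settings called up to 3 genes of this list, as with array weights.

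The array profile of the assembly genes was not that of the ribosomal proteins. Their mean level was 9.80, 9.86, 9.95 and 9.99 on reverted arrays 1 to 4 and 9.71, 9.71, 9.72 and 9.80 on quiescent arrays 1 to 4, so reverted array 1, where the ribosomal proteins were highest, was the lowest of its group and level with quiescent array 4.

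**Figure D5:**
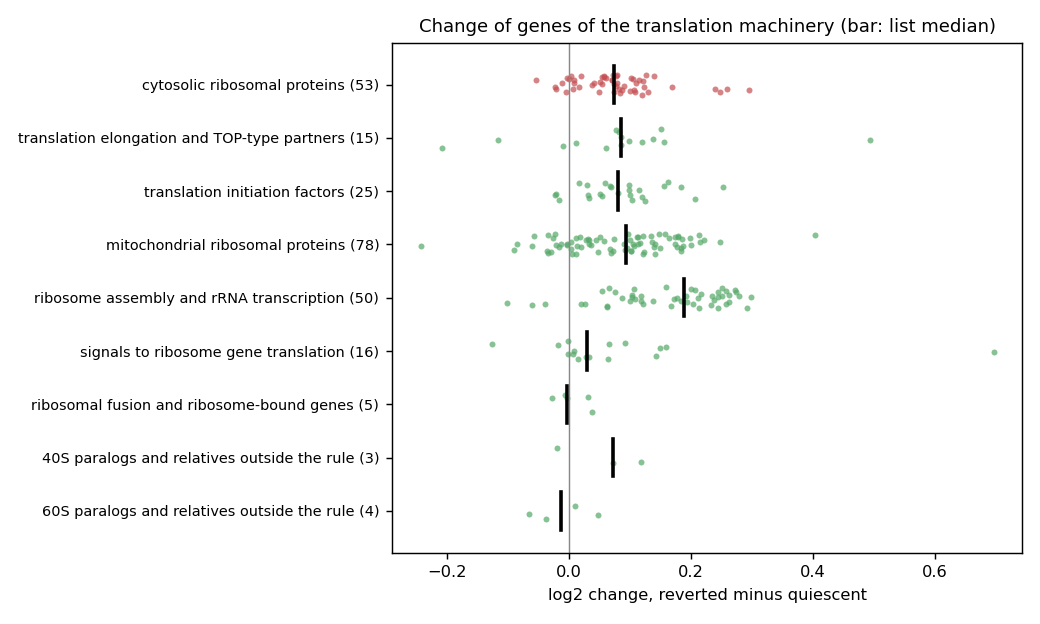
Each point is a gene's log2 change (reverted minus quiescent), bars are list medians and the number of genes stands in brackets. The cytosolic ribosomal proteins (median 0.074) lie in a narrower band than the assembly genes (median 0.188), and none of the genes shown was called.

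Among regulators of ribosome production, 0 of 16 rose and 0 fell, and the median log2 change was 0.031. It turned to -0.0019 after quantile normalization and ranged from 0.014 to 0.050 with single arrays left out (reverted 2 at the low end, reverted 1 at the high end). Myc was at 12.25, 12.21, 12.27 and 12.38 in reverted cells and at 11.61, 11.35, 11.30 and 12.08 in quiescent cells. All reverted arrays were higher, quiescent array 4 was nearest to them, and the log2 change was 0.70 (SE 0.15, adjusted p = 0.0820). Without quiescent array 4 the change was 0.86 and passed (adjusted p = 0.00424). Mdm2, which is bound by the free 5S particle, had a log2 change of 0.16 (adjusted p = 0.201), and Mycn one of -0.13 (adjusted p = 0.276). Paralogs of the ribosomal proteins outside the naming rule gave 0 rises and 0 falls: Rpl3l (-0.065), Rpl7l1 (0.047) and Rpl39l (-0.036) for the large subunit and Rps27l (0.073) and Rps4l (0.12) for the small subunit. Rps4l ranged from 0.012 without quiescent array 1 to 0.18 without quiescent array 3. Of 5 measured genes of ribosome-bound or ribosomal fusion proteins, 2 were higher and 3 lower, with 0 calls and a median log2 change of -0.0028, which ranged from -0.0021 to 0.016 with 1 array left out. Tpt1, which has a TOP mRNA, had a change of 0.032, and Btf3, part of the nascent chain complex, one of 0.038, turning to -0.0015 or -0.041 with the mean or the lowest of its probe sets.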

How the data were processed

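Per the submitters' processing notes the authors used RMA, and the deposited values are log2 expression per probe set. The sources used here give neither the RMA version and settings nor a genome build. There were 35556 probe sets, 0 missing values and 0 columns outside the 8 samples. The platform annotation gives 1 symbol to 21789 probe sets and several to 1621; all 53 members matched RefSeq (GRCm38.p6) by Entrez identifier with unchanged symbols. For each gene the probe set with the highest mean was used. Reverted and quiescent arrays were compared with limma 3.58.1 (lmFit, eBayes; R 4.3.3), 2-sided, without covariates, adjusted over 19938 genes. Tables and plots used Python 3.11.15, pandas 2.3.3 and matplotlib 3.10.9. The limma step was tested on simulated data with 200 changed genes.

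The members, the gene lists and the tests were chosen with earlier results of these data known. Values per array are given by rule for called members, the 8 members with the largest positive change, those with a negative change (at most 8) and 12 set members, 10 of which were measured; from each list, the text draws on called genes and the 3 with the smallest p. The lists hold other translation genes and cell type markers. Same-numbered arrays were checked for pairing: the correlations of their deviations from the group means were -0.15, -0.029, -0.018 and 0.081, so the numbers were not taken to pair them. The number of arrays limits the precision. No hybridisation batch was given.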

Additional observations from a re-analysis of the deposited data

Results flagged for a closer look

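Of 46 groups of 4 arrays tested (the members given per array and the median of the members, in each group), 1 held an array far from the others by Dixon's test. Rpl30 was at 8.68 on reverted array 1, while the nearest of the other reverted arrays was at 8.76, and the gap made up 0.844 of the range of the group. Such a gap arises by chance in about 1 in 20 groups. Without reverted array 1 the log2 change of Rpl30 was 0.27 (adjusted p = 0.116 in limma).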

How the results depend on the processing

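No alternative called any of the 53 members in either direction: the counts were 0 rises and 0 falls under quantile normalization, median centring, the filters on dim genes, the mean or lowest probe set per gene, an intensity trend, array weights, Welch's test, the replicate block and with each array left out. The filter on the lower 50% of genes removed Rplp2 and left 52 members. The lowest adjusted p of a member ran from 0.0525 (array weights) to 0.301 (Welch's test). The members' median log2 change stayed between 0.065 and 0.080 over the settings with all arrays and between 0.048 and 0.099 with 1 array left out, and the number of members with a higher reverted mean between 44 and 47. Over all genes, rises and falls numbered 218 and 88 with array weights, 0 and 0 with Welch's test (2369 genes at an unadjusted p under 0.05) and 48 and 15 with the replicate block, and ranged from 41 to 175 and from 13 to 72 with 1 array left out. The replicate block called 0 members; the numbers were not taken to pair the arrays, and 0 of 4 reverted arrays correlated best with the quiescent array of the same number. The sign turned for Rpl36a with array weights (0.0046), Rps6 after quantile normalization (0.025), Rps19bp1 with array weights (0.0020) and Btf3 with the mean (-0.0015) or lowest (-0.041) probe set. With 1 array left out, Rpl26 ranged from -0.026 to 0.00052, Rpl36a from -0.023 to 0.021, Rps6 from -0.026 to 0.017, Rps19bp1 from -0.047 to 0.021 and Serbp1 from -0.050 to 0.0067, each turning sign; the cause was not tested. Of the 22 members given per array, 13 moved by over 1.5 times or turned sign with some array left out: Rpl12, Rplp2, Rpl5, Rpl22, Rps19, Rpl41, Rps4x and the 6 with a lower reverted mean, of which Rpl37a ranged from -0.092 to -0.020, Rpl29 from -0.036 to -0.0098 and Rpl10 from -0.029 to -0.0093. In the other translation lists, calls were made for Tsr1 after quantile normalization (adjusted p = 0.0408), without the lower 50% of genes (0.0491), with array weights (0.0271) and without quiescent array 4 (0.0428), for Nop10 (0.0498), Utp20 (0.0491), Mrps25 (0.0401), Eif5a (0.0395) and Myc (0.0249) with array weights, for Eif5a with an intensity trend (0.0302), for Wdr12 with the lowest probe set (0.0307), for Brix1 and Wdr43 without reverted array 1 (0.0494 each) and for Myc without quiescent array 4 (0.00424). Nop10, Utp20, Wdr12, Brix1 and Wdr43, all of the assembly list, are named after their values were seen. Welch's test put 13 members higher at an unadjusted p under 0.05, where limma put 10. Over all 19938 genes, 2369 were under that level in either direction with Welch's test and 3181 with limma.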
